A study of Mus musculus with 6 samples.

Results

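The Dlx genes encode homeodomain transcription factors, and 8 gene symbols of the family were followed here through molars of Ascl5 mutant mice. They were picked by gene symbol, but with earlier results of these data known. They are the coding genes Dlx1, Dlx2, Dlx3, Dlx4, Dlx5 and Dlx6, and the antisense genes Dlx1as and Dlx6os1, which lie opposite Dlx1 and Dlx6. All 8 were among the 24972 genes of each of the deposited tables. The study measured RNA in upper first molars at postnatal day 1 to ask how a mutation of Ascl5, a gene for a helix-loop-helix transcription factor, alters transcript levels. There were 3 genotypes with 2 libraries each: Ascl5Mut/Mut molars carry the mutation on both alleles, Ascl5Mut/WT molars on 1 allele, and Ascl5WT/WT molars, the controls, on neither. The labels give no strain, no nature of the mutation, no sex and no number of animals or teeth behind a library, and they give all 6 libraries the same batch. Because nothing says that the libraries of a genotype came from separate animals, p-values measure only the spread between these libraries, which may be technical.

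Dlx genes are the vertebrate relatives of the Drosophila gene Distal-less, and in mammals they sit in neighbouring pairs that are transcribed towards each other and share enhancers. In the embryonic jaws of the mouse they are switched on in nested domains of the neural crest mesenchyme, where fibroblast growth factor, bone morphogenetic protein and endothelin signals control them. Dlx1 and Dlx2 act in the upper and the lower jaw, and mice that lack both genes do not form upper molars. Dlx5 and Dlx6 give the lower jaw its identity and promote bone formation, and Dlx3 and Dlx4 are used in skin, placenta, bone and the hard tissues of teeth.

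The coding members are told apart by sequence even where they are most alike. The 75 bases below are the same part of the homeobox, the stretch that encodes the DNA-binding homeodomain, in each of the 6 coding genes. They were read from the GENCODE M21 transcripts (GRCm38) and are written 5′ to 3′ on the coding strand, with capitals where a gene differs from Dlx1. They are shown because reads that matched several Dlx genes equally well could have been assigned to the wrong one.
Dlx1 (chr2:71531082-71531156, plus strand): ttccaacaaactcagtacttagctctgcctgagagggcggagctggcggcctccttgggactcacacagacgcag
Dlx2 (chr2:71545384-71545458, minus strand): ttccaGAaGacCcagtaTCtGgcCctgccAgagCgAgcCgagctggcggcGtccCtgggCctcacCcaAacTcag
Dlx3 (chr11:95121824-95121898, plus strand): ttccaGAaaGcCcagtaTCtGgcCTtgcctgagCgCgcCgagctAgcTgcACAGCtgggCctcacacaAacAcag
Dlx4 (chr11:95141789-95141863, minus strand): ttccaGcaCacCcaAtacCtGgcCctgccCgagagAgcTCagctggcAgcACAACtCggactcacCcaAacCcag
Dlx5 (chr6:6879526-6879600, minus strand): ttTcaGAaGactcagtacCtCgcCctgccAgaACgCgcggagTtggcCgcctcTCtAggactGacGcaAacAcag
Dlx6 (chr6:6865197-6865271, plus strand): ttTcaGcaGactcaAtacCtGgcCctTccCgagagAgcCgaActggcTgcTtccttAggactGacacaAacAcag
Dlx2 and Dlx6 shared 57 of the 75 bases with Dlx1, or 76.0%. Dlx3 shared the fewest, 53 bases or 70.7%. Over whole transcripts, none of the 5641 stretches of 75 bases in Dlx1 occurred on the same strand in any other annotated gene. The same held for Dlx1as, Dlx2, Dlx3, Dlx4, Dlx5 and Dlx6os1. For Dlx6, 10 such stretches, or 0.4%, occurred in transcripts of Gm45470 or Klhl32.

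Dlx1 and Dlx1as are not told apart in this way, because they share bases on opposite strands. Dlx1 (ENSMUSG00000041911.3) lies on the plus strand at chr2:71528113-71533981, and Dlx1as (ENSMUSG00000084946.2) on the minus strand at chr2:71516454-71537891. Their exons overlap by 335 bases at chr2:71532784-71533118, within the 3′ untranslated region of Dlx1, and no coding base lies in the overlap. This is 8.1% of the Dlx1 exons and 20.6% of the Dlx1as exons. RefSeq gives Dlx1as a shorter span, chr2:71530638-71537891, and the annotation used for counting is not given. The Dlx1as share and its values per kb therefore depend on the gene model. The library kit keeps the strand of a transcript, but the strand setting used for counting is not given in the sources used here, so reads from the shared bases cannot be told apart. Dlx2 follows 9426 bases beyond Dlx1, on the minus strand at chr2:71543408-71546754. The pair Dlx3 and Dlx4 lies on chromosome 11, at chr11:95120119-95125296 and chr11:95140447-95146263, and the pair Dlx6 and Dlx5 on chromosome 6, at chr6:6863334-6868568 and chr6:6877805-6882085. Dlx6os1 (chr6:6820189-6871592) spans Dlx6 on the opposite strand without any overlap of exons.

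**Figure D1:**
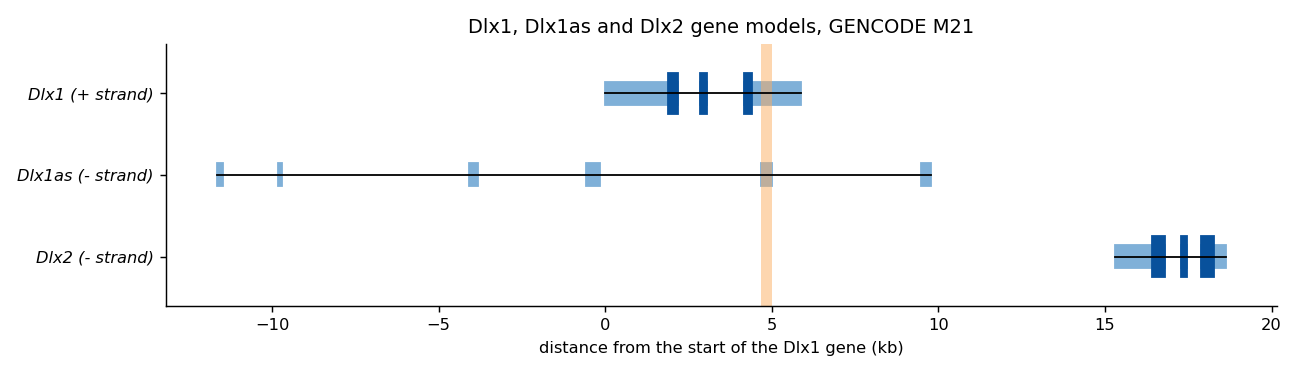
Gene models of Dlx1, Dlx1as and Dlx2 in GENCODE M21, by distance in kb from the start of Dlx1. Light boxes are exons, dark taller boxes are coding parts, and the band marks the 335 bases in which exons of Dlx1 and Dlx1as overlap, outside the coding parts of Dlx1.

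Each table held 2 Ascl5WT/WT libraries beside the 2 libraries of 1 mutant genotype. Library totals were 12304814 to 13118122 normalized counts. Low values clustered at multiples of 109 to 139 normalized counts, which is taken as the value of 1 read, and the totals divided by it gave an estimated 90344 to 116542 counted reads per library. At this depth 66.6% to 71.0% of genes were listed at 0 in a library, and a value of 0 allows up to 3 reads, or 328 to 418 normalized counts, by counting error alone. Ascl5 itself (chr1:136050804-136051370) had a value of 0 throughout all 6 libraries and so could not serve to check the genotype labels. Markers of the labelled tissue were sparse. Of 11 dental mesenchyme markers, 9 were above 0 in some library of each table, and Vim made up most of their sum. Of 7 enamel matrix genes, 4 were above 0 in the Ascl5Mut/Mut table and 5 in the Ascl5Mut/WT table, with sums of 140 to 815 and 1015 to 1079 in the mutant libraries, against 109 to 255 in Ascl5WT/WT libraries. Most Dlx values therefore rest on a few reads, and only Dlx1 and Dlx1as had the mean of at least 1000 normalized counts over 4 libraries that was set for testing.

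Dlx1, a homeodomain factor of the proximal jaw mesenchyme, fell in Ascl5Mut/Mut molars to 2.9% of its Ascl5WT/WT level. It had 2348 and 556 normalized counts in Ascl5Mut/Mut replicates 1 and 2, against 47224 and 53336 in the Ascl5WT/WT libraries. These values correspond to about 16.8 and 4.1 reads in Ascl5Mut/Mut and 432 and 445 reads in Ascl5WT/WT. The groups lie far apart, and the spread is much wider within the mutants, whose libraries differ 4.22-fold, than within the controls, which differ 1.13-fold. By level, Dlx1 ranked 1090 and 3904 among all genes of the Ascl5Mut/Mut libraries, and 14 and 15 in the Ascl5WT/WT libraries. The means were 1452 ± 1267 in Ascl5Mut/Mut and 50280 ± 4322 in Ascl5WT/WT (SD, n = 2 each). On the scale of log2(normalized count + 120), the difference, Ascl5Mut/Mut minus Ascl5WT/WT, was -5.28 (SE 0.57, limma, Benjamini-Hochberg adjusted p = 0.00405). Over all 2336 genes tested the median difference was -0.02, 0.856% were called in either direction and 0.3% were called lower. Dlx1 had the second lowest p of them. When Ascl5Mut/Mut replicate 1 was left out the difference was -6.22 and the call was gone (limma, Benjamini-Hochberg adjusted p = 0.0836). It was also gone when genes down to a mean of 10 were tested (adjusted p = 0.311) and when the intensity trend was left out (adjusted p = 0.163).

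In Ascl5Mut/WT molars Dlx1 fell as well, to 6.5% of its Ascl5WT/WT level. The Ascl5Mut/WT libraries had 4658 and 2064 normalized counts, about 36.9 and 15.1 reads, against 48116 and 55586, about 433 and 445 reads, in the Ascl5WT/WT libraries of the same table. Every Ascl5Mut/WT value is far below every Ascl5WT/WT value. The means were 3361 ± 1834 in Ascl5Mut/WT and 51851 ± 5282 in Ascl5WT/WT (SD, n = 2 each). The difference was -4.00 on the log2(normalized count + 120) scale (SE 0.40, limma, Benjamini-Hochberg adjusted p = 1.41e-05), the lowest difference and the lowest p among 2370 genes tested. Of these genes 0.549% were called and 0.211% were called lower, and their median difference was 0.04. Without Ascl5Mut/WT replicate 2 the difference was -3.44 and the call was lost (limma, Benjamini-Hochberg adjusted p = 0.102), as it was without the intensity trend (adjusted p = 0.216) and with a pseudocount of 1 and a minimum mean of 10 together (adjusted p = 0.559).

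The comparisons of the mutant genotypes share the Ascl5WT/WT libraries, so the fall in one is no independent repeat of the fall in the other. The tables were normalized separately, and values of the same Ascl5WT/WT library differ between them by a median ratio of 1.02 for replicate 1 and 1.04 for replicate 2. The Ascl5Mut/Mut and Ascl5Mut/WT levels of Dlx1 were therefore not tested against each other, and stand side by side as 2348 and 556 normalized counts in Ascl5Mut/Mut and 4658 and 2064 in Ascl5Mut/WT. In bulk tissue, fewer cells that express Dlx1 and less Dlx1 RNA per cell cannot be told apart.

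**Figure D2:**
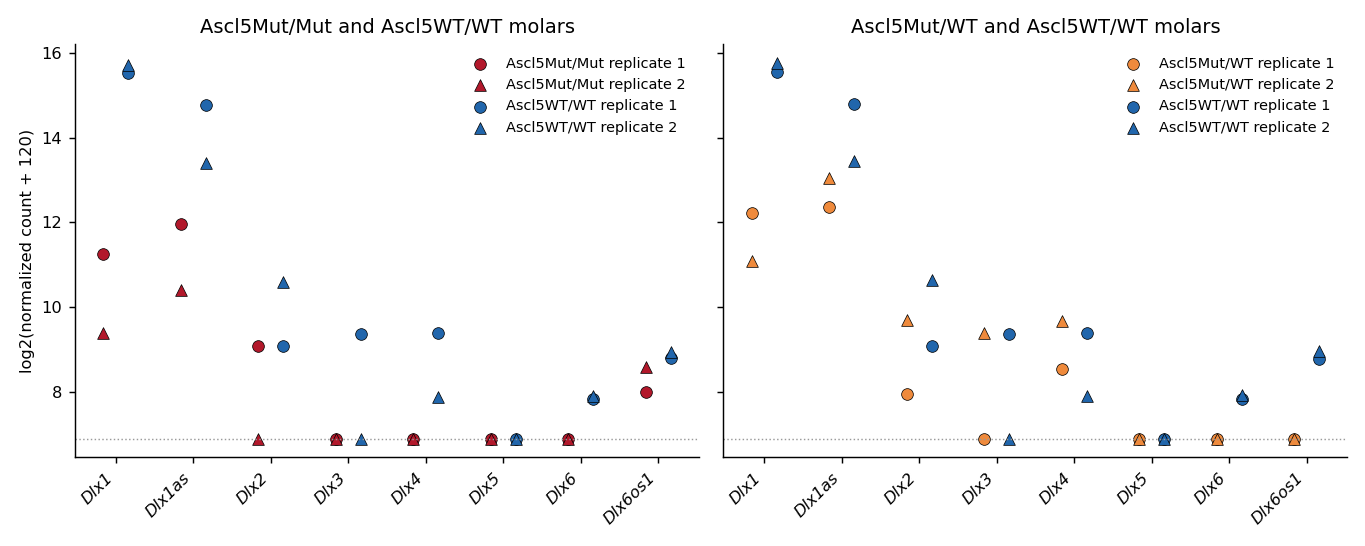
Normalized counts of the 8 Dlx genes in every library, as log2(normalized count + 120), with mutant libraries left of Ascl5WT/WT libraries for each gene and the dotted line at a normalized count of 0. Dlx1 and Dlx1as are the only members high in Ascl5WT/WT, and mutant and Ascl5WT/WT libraries are far apart for Dlx1, while the other members lie lower, several of them on the dotted line.

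Dlx1as, the noncoding gene antisense to Dlx1, also had lower values in every mutant library than in any Ascl5WT/WT library, but it passed the test in neither comparison. In mice, disrupting its transcription has been reported to raise Dlx1 RNA mildly. It had 3897 and 1241 normalized counts in Ascl5Mut/Mut replicates 1 and 2, against 27823 and 10656 in the Ascl5WT/WT libraries. The Ascl5WT/WT libraries differ 2.61-fold from each other, and the Ascl5Mut/Mut libraries 3.14-fold. The difference was -2.89 on the log2(normalized count + 120) scale (SE 0.63, limma, Benjamini-Hochberg adjusted p = 0.0796). With the libraries scaled to the same upper quartile it was -3.00 and past the threshold (adjusted p = 0.0276), and without Ascl5WT/WT replicate 2 it was -3.58 (adjusted p = 3.2e-07).

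Ascl5Mut/WT replicates 1 and 2 held 5177 and 8403 normalized counts of Dlx1as, against 28308 and 11090 in the Ascl5WT/WT libraries. The higher mutant value lies close to the lower control value. The difference was -1.41 (SE 0.44, limma, Benjamini-Hochberg adjusted p = 0.252). It was past the threshold without Ascl5WT/WT replicate 2, at -2.08 (adjusted p = 0.00112), and it was -0.74 without Ascl5WT/WT replicate 1. In this comparison the size of the Dlx1as difference thus depended on which Ascl5WT/WT library was used.

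Set against each other, Dlx1 took a smaller share of the pair in the mutants. Of the normalized counts of Dlx1 and Dlx1as together, 37.6% and 30.9% were listed under Dlx1 in Ascl5Mut/Mut replicates 1 and 2, against 62.9% and 83.3% in the Ascl5WT/WT libraries. For Ascl5Mut/WT the Dlx1 share was 47.4% and 19.7%, against 63.0% and 83.4% in the Ascl5WT/WT libraries of that table. In both tables the shares of the mutant and the Ascl5WT/WT libraries do not overlap, but how many other pairs show such a gap was not counted. The Ascl5Mut/Mut shares rest on few reads. Replicate 1 had about 16.8 of Dlx1 and 28.0 of Dlx1as, and replicate 2 about 4.1 and 9.1. Such shares were not tested, since 2 against 2 libraries are too few for an exact test to reach the threshold. Per kb of GENCODE exon, the Ascl5WT/WT means in the Ascl5Mut/Mut table were 12231 normalized counts for Dlx1 and 11803 for Dlx1as. The 2 libraries differed in order: replicate 1 had 11487 for Dlx1 and 17069 for Dlx1as, and replicate 2 had 12974 and 6537. The Ascl5Mut/Mut means were 353 per kb for Dlx1 and 1576 for Dlx1as. The Ascl5Mut/WT means were 818 per kb for Dlx1 and 4166 for Dlx1as.

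Because the strand setting is unknown, Dlx1 and Dlx1as were also added into 1 feature before the fit. The sum cannot correct for shared reads that were dropped or counted for both genes. Dlx1 made up 62.9% to 83.4% of it in Ascl5WT/WT, so its result largely follows that of Dlx1. The difference of the sum was -4.31 in Ascl5Mut/Mut (limma, Benjamini-Hochberg adjusted p = 0.00881) and -2.80 in Ascl5Mut/WT (adjusted p = 6.45e-05), both on the log2(normalized count + 120) scale. The sum was thus called lower in each comparison. Among 170 pairs of a coding gene and an antisense gene named after it, 20 had both partners above 0 in both Ascl5WT/WT libraries, and in 12 of these the antisense partner had the higher mean normalized count, not corrected for length. Dlx1 and Dlx1as were 1 of 3 pairs in which both partners averaged at least 1000 normalized counts in Ascl5WT/WT.

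**Figure D3:**
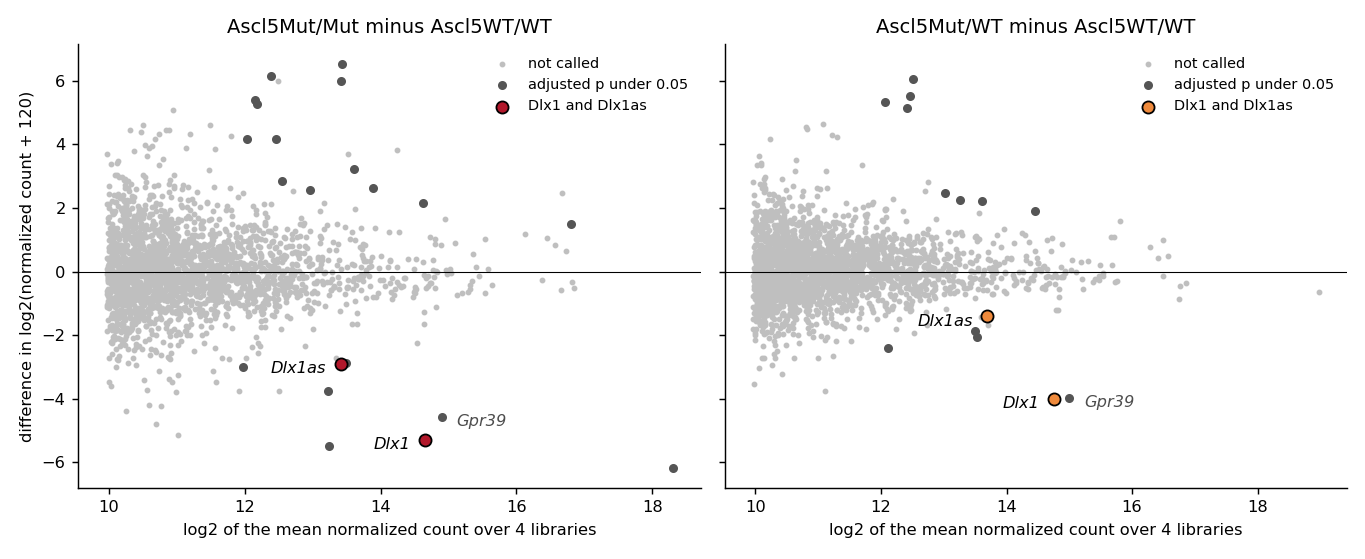
Difference of each tested gene on the log2(normalized count + 120) scale, mutant minus Ascl5WT/WT, against log2 of its mean normalized count over 4 libraries, for Ascl5Mut/Mut on the left and Ascl5Mut/WT on the right. Dark grey points have an adjusted p under 0.05, and the large coloured points are Dlx1, which is called in both panels, and Dlx1as, which is called in neither.

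**Figure D4:**
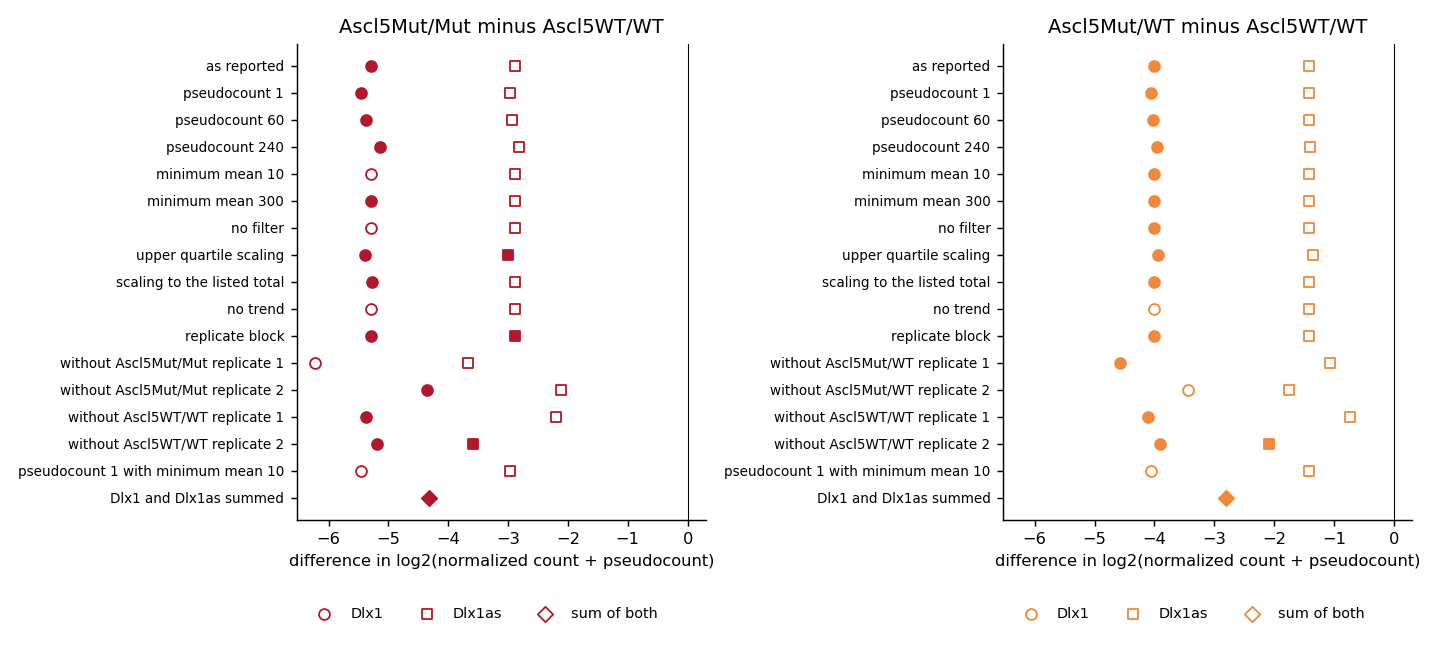
Difference of Dlx1 (circles) and Dlx1as (squares), mutant minus Ascl5WT/WT, on the log2(normalized count + pseudocount) scale under the reported setting and each alternative; diamonds show Dlx1 and Dlx1as added before the fit, at -4.31 in Ascl5Mut/Mut and -2.80 in Ascl5Mut/WT. Filled symbols have an adjusted p under 0.05. All values lie below 0, Dlx1 between -6.22 and -4.35 in Ascl5Mut/Mut and between -4.57 and -3.44 in Ascl5Mut/WT, while open symbols mark settings in which the call is missing.

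Dlx2, the partner of Dlx1 in its cluster and in upper molar formation, was far lower than Dlx1 in the control molars. It had 429 and 0 normalized counts in Ascl5Mut/Mut replicates 1 and 2, against 427 and 1441 in the Ascl5WT/WT libraries, which is 3.1 and 0 reads against 3.9 and 12.0. Dlx2 had 128 and 714 normalized counts in Ascl5Mut/WT replicates 1 and 2, against 428 and 1476 in Ascl5WT/WT. The mutant and Ascl5WT/WT libraries overlap in both tables. With the minimum mean lowered to 300, its difference was -1.85 in Ascl5Mut/Mut (SE 1.25, limma, Benjamini-Hochberg adjusted p = 0.676) and -1.04 in Ascl5Mut/WT (SE 1.05, adjusted p = 0.826). At that minimum 0.07% of 5714 genes and 0.374% of 5612 genes were called. Per kb of exon, the Ascl5WT/WT mean was 378 normalized counts for Dlx2 and 12231 for Dlx1 in the Ascl5Mut/Mut table.

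Dlx3, a factor of differentiating skin, hair and mineralizing cells, was near the detection limit throughout. It was listed at 0 in Ascl5Mut/Mut replicates 1 and 2, against 544 and 0 normalized counts in Ascl5WT/WT, and at 0 and 555 in Ascl5Mut/WT replicates 1 and 2, against 545 and 0 in Ascl5WT/WT. In each table it was thus above 0 in no more than 1 library of a genotype, with about 5 reads or fewer. Dlx4, its neighbour in the cluster, was listed at 0 in Ascl5Mut/Mut replicates 1 and 2, against 553 and 118 normalized counts in Ascl5WT/WT. Dlx4 had 252 and 698 in Ascl5Mut/WT replicates 1 and 2, against 557 and 121.6 in Ascl5WT/WT, so that here the groups overlap. Tested at the lower minimum mean, which it passed only in the Ascl5Mut/WT table, its difference was 0.45 (SE 1.22, limma, Benjamini-Hochberg adjusted p = 0.947). The antisense gene Dlx4os, which shares 79 bases of exon with Dlx4 on the opposite strand, was listed at 0 in all mutant libraries, against 218 and 0 in the Ascl5WT/WT libraries of the Ascl5Mut/Mut table.

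Dlx5, which with Dlx6 specifies the lower jaw and promotes osteoblast differentiation, was listed at 0 in all 6 libraries. Dlx6 was listed at 0 in all 4 mutant libraries, against 109 and 120 normalized counts in the Ascl5WT/WT libraries of the Ascl5Mut/Mut table, about 1 read each. Dlx6os1 is a long noncoding gene known in the mouse forebrain for transcripts that act on the Dlx5 and Dlx6 enhancers. It had 138 and 265 normalized counts in Ascl5Mut/Mut replicates 1 and 2, against 325 and 377 in the Ascl5WT/WT libraries. Both Ascl5Mut/WT values of Dlx6os1 were 0, against 323 and 384 in Ascl5WT/WT. All of these are values of 3 reads or fewer, to the nearest read, and lie under or close to what a count of 0 allows. The antisense gene Dlx6os2, which lies within the span of Dlx6 and shares bases with its exons, had more: 987 and 1141 normalized counts in Ascl5Mut/Mut, against 635 and 1988 in Ascl5WT/WT. Its difference was -0.09 (limma, Benjamini-Hochberg adjusted p = 0.979). Dlx6os2 had 505 and 138 in Ascl5Mut/WT, against 660 and 2113 in Ascl5WT/WT.

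Counted over the family, the mutant libraries lay below both Ascl5WT/WT libraries for 5 of the 8 members in Ascl5Mut/Mut (Dlx1, Dlx1as, Dlx4, Dlx6 and Dlx6os1). This held for 4 members in Ascl5Mut/WT (Dlx1, Dlx1as, Dlx6 and Dlx6os1). Dlx5, listed at 0 in every library, could show no such gap. Among all genes above 0 in some library of the table, which leave Dlx5 out, 13.5% and 11.8% showed such a gap. Among genes tested the shares were 21.8% and 19.5%. Outside Dlx1 and Dlx1as these gaps are differences of a few reads. Of the 2 members tested in each comparison, Dlx1 was called lower and neither was called higher, where 0.557% and 0.338% of tested genes were called higher.

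In Ascl5WT/WT molars the family was carried by Dlx1 and Dlx1as. They made up 97.5% and 96.9% of the summed normalized counts of the 8 members in Ascl5WT/WT, and the order of the per kb means was Dlx1, Dlx1as, Dlx2 and then Dlx3, Dlx4, Dlx6os1 and Dlx6, with Dlx5 at 0. The values of neighbours in this order overlap, except those of Dlx1as and Dlx2 and those of Dlx6os1 and Dlx6, and the last of these exceptions rests on 1 to 3 reads a library. The sum over the 8 members was 6811 and 2062 normalized counts in Ascl5Mut/Mut replicates 1 and 2, against 77005 and 66048 in the Ascl5WT/WT libraries. It was 10215 and 12433 in Ascl5Mut/WT replicates 1 and 2, against 78387 and 68782 in the Ascl5WT/WT libraries. Without Dlx1 and Dlx1as, the other 6 members summed to 566 and 265 in Ascl5Mut/Mut, against 1958 and 2056 in Ascl5WT/WT, and to 380 and 1966 in Ascl5Mut/WT, against 1964 and 2106 in Ascl5WT/WT. Over the 8 members the mutant sums thus lie below the Ascl5WT/WT sums in both tables. Over the other 6 this holds for Ascl5Mut/Mut, whereas the sum of Ascl5Mut/WT replicate 2 lies between those of the Ascl5WT/WT libraries.

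Signals that control Dlx genes in the embryonic jaw, with their receptors, were mostly too low to test. Of 16 such genes, 4 were tested in each comparison and none was called, and their median difference was -0.03 in Ascl5Mut/Mut and -0.19 in Ascl5Mut/WT. Of the 12 above 0 in the Ascl5Mut/Mut table, 5 were lower in both mutant libraries than in both controls and 1 was higher. Among all genes above 0 there, 13.5% were lower and 13.3% higher. For Ascl5Mut/WT 1 of 13 was lower and 3 higher, against 11.8% and 14.5% of all. Fgf8 and Edn1, which encode the growth factor and the endothelin that pattern the jaw arch, were listed at 0 in every library, as was the endothelin receptor gene Ednra. Notch2, a receptor gene, had 1255 and 2215 normalized counts in Ascl5Mut/Mut, against 6008 and 8856 in Ascl5WT/WT (limma, Benjamini-Hochberg adjusted p = 0.168). Bmp4, which encodes a morphogen of early tooth development, had 281 and 0 in Ascl5Mut/Mut, and 0 in both Ascl5WT/WT libraries.

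Other transcription factors of jaw and tooth mesenchyme were low in all libraries and gave no call. Of 20 such genes, none had the mean set for testing in the Ascl5Mut/Mut table and 2 had it in the Ascl5Mut/WT table, Msx2 and Alx4, neither of which was called. Their summed values were 4533 to 6158 normalized counts in Ascl5Mut/Mut libraries, against 2997 to 6030 in Ascl5WT/WT libraries, so the ranges overlap. Ascl5Mut/WT libraries had sums of 4139 to 12911, against 3114 to 6179 in Ascl5WT/WT libraries. Msx1, a homeobox gene required for molar development, had 0 in Ascl5Mut/Mut replicates 1 and 2, against 654 and 0 in Ascl5WT/WT. Msx2, whose protein can pair with Dlx proteins, had 0 and 541 in Ascl5Mut/Mut, against 1834 and 1097 in Ascl5WT/WT. Barx1, a marker of molar mesenchyme, had 273 and 296 in Ascl5Mut/Mut, against 1029 and 0 in Ascl5WT/WT. The Ascl5WT/WT libraries differ strongly in Msx1 and Barx1, as the heat map of jaw and tooth factors shows. Other genes of the list lay the other way. Prrx1, a homeobox gene of limb and face mesenchyme, had 2022 and 926 in Ascl5Mut/Mut, against 217 and 0 in Ascl5WT/WT, and Pou3f3, a POU factor of the upper jaw, had 814 and 281 in Ascl5Mut/Mut, against 0 in both Ascl5WT/WT libraries. Of the 17 listed genes above 0 in some library of the Ascl5Mut/Mut table, 3 were higher in both mutant libraries than in both controls and 1, Msx2, was lower in both. For Ascl5Mut/WT 4 of 15 such genes were higher in this sense and 0 lower. Among all genes above 0 in some library, 13.3% lay higher in this way in Ascl5Mut/Mut and 14.5% in Ascl5Mut/WT.

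**Figure D5:**
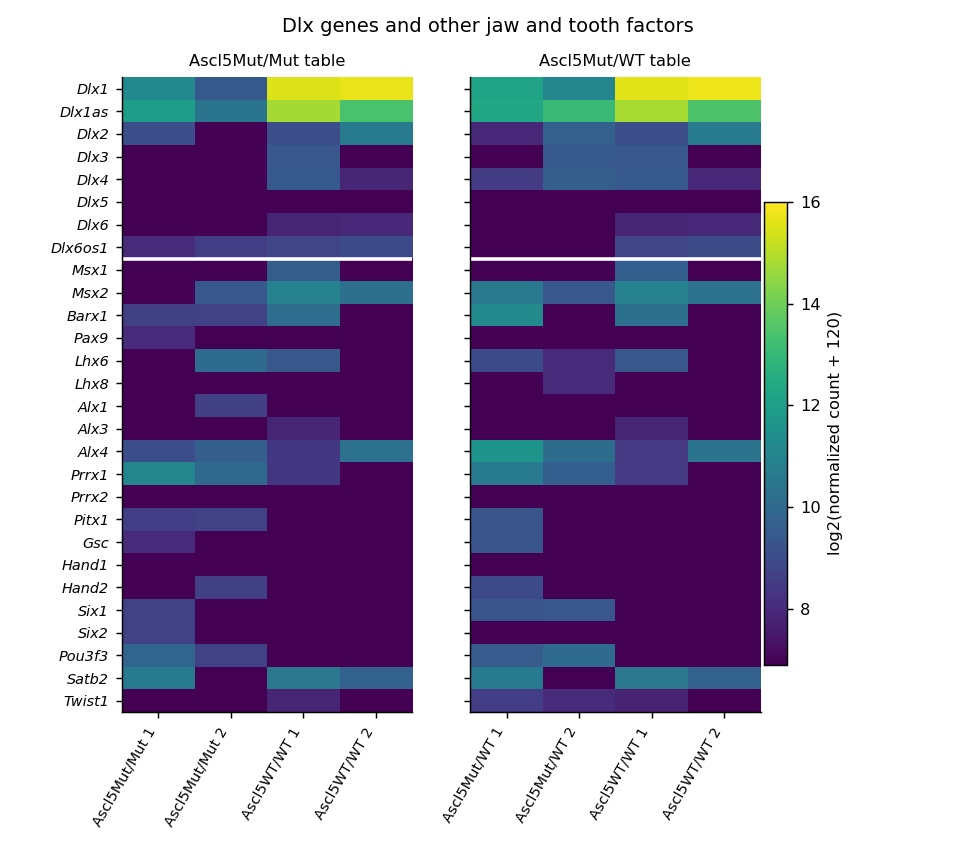
Normalized counts of the 8 Dlx genes (above the white line) and of 20 other jaw and tooth factors in every library, coloured by log2(normalized count + 120), with mutant libraries left of Ascl5WT/WT libraries in each panel. Dlx1 and Dlx1as are the brightest rows in Ascl5WT/WT, and most other factors are at or near the darkest colour, a normalized count of 0, in several libraries.

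Genes that Dlx factors are known to act on were also counted. Of 12 ameloblast and odontoblast genes, 2 were tested in each comparison. None was called in Ascl5Mut/Mut, where their median was -1.68. Dspp, which encodes the main noncollagenous protein of dentin, rose in Ascl5Mut/WT, with 14045 and 8122 normalized counts against 336 and 0 in Ascl5WT/WT (limma, Benjamini-Hochberg adjusted p = 0.000399). Dspp passed the minimum mean only through the mutant libraries, so only a rise could be called. Its Ascl5Mut/Mut values were both 0, against 327 and 0 in Ascl5WT/WT. Of 10 bone genes tied to Dlx5 and Dlx6, 4 were tested in Ascl5Mut/Mut and 3 in Ascl5Mut/WT, and none was called. All of the tested genes had a difference above 0, with a median of 3.04 and 2.52. Bglap and Spp1 passed the minimum mean only through the mutant libraries. Runx2, too low to test, lay the other way in Ascl5Mut/Mut, with 0 and 141 against 1405 and 540 in Ascl5WT/WT. Of the 10 genes 7 were higher in both Ascl5Mut/Mut libraries than in both controls, and 1, Runx2, was lower. Among all genes above 0 in some library, 13.3% were higher and 13.5% lower. For Ascl5Mut/WT 6 of 9 were higher, against 14.5% of all, and 0 lower. Ibsp, which encodes bone sialoprotein, had 21832 and 19262 in Ascl5Mut/Mut, against 329 and 5488 in Ascl5WT/WT (limma, Benjamini-Hochberg adjusted p = 0.143). Ibsp and Col1a1 were above 0 in every library and Dlx5 in none, whereas Spp1, Bglap, Mepe and Phex were also at 0 in Ascl5WT/WT replicate 1.

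Partners, cofactors and neighbours of the Dlx genes gave no call. Of 6 genes for partners or inhibitors of Dlx proteins 1 was tested in Ascl5Mut/Mut and 2 in Ascl5Mut/WT, with medians of -0.54 and -0.19. Of 8 cofactors and chromatin regulators of the mesenchyme 3 were tested in each, with medians of -0.61 and -0.40. Of 13 names written down for genes near the clusters 11 were in the tables, and Hat1 was the only one tested. Hat1 encodes a histone acetyltransferase and lies in the region of Dlx1 and Dlx2. It had 814 and 535 normalized counts in Ascl5Mut/Mut, against 1446 and 1480 in Ascl5WT/WT (difference -1.02, limma, Benjamini-Hochberg adjusted p = 0.691). In Ascl5Mut/WT it had 736 and 1465, against 1476 and 1545 in Ascl5WT/WT (difference -0.49, adjusted p = 0.87). Metap1d, another gene of that region, was listed at 0 in every library.

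Markers of other tissues also differed between mutant and Ascl5WT/WT libraries. For keratinized oral epithelium, 9 of 10 markers were in the tables, and 6 were tested in Ascl5Mut/Mut and 5 in Ascl5Mut/WT. Krt4, Krt13 and Rptn were called higher in Ascl5Mut/Mut, where 0.557% of all tested genes were. Krt4 and Krt13 were called higher in Ascl5Mut/WT, where 0.338% were. All tested markers of this list passed the minimum mean only through the mutant libraries, so only a rise could be called. Krt13, a mucosal keratin, had 5344 and 38097 in Ascl5Mut/Mut, against 0 and 306 in Ascl5WT/WT (limma, Benjamini-Hochberg adjusted p = 0.0271). The summed markers were 19515 to 128451 normalized counts in Ascl5Mut/Mut libraries, against 219 to 540 in Ascl5WT/WT libraries, and 14446 to 49207 in Ascl5Mut/WT libraries, against 222 to 562 in Ascl5WT/WT libraries. In each mutant genotype the library with the higher sum, replicate 2, was also the one with the lower Dlx1 value, while in Ascl5WT/WT replicate 2 had both the higher sum and the higher Dlx1 value. The osteoclast list, of whose 7 markers 4 were above 0, summed to 11955 to 17042 in Ascl5Mut/Mut and 120 to 430 in Ascl5WT/WT. It summed to 2169 to 7838 in Ascl5Mut/WT, against 126 to 441 in Ascl5WT/WT. Ctsk, its collagen-degrading protease, was called higher in Ascl5Mut/Mut (limma, Benjamini-Hochberg adjusted p = 0.0151), and it too passed the minimum mean only through the mutant libraries. The part of these tissues in the Dlx1 difference was not tested.

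Markers of dental mesenchyme and epithelium, the tissues of the molar itself, gave no call. The 11 dental mesenchyme markers summed to 12712 to 18046 normalized counts in Ascl5Mut/Mut libraries, against 7527 to 13982 in Ascl5WT/WT libraries. Their Ascl5Mut/WT sums were 5360 to 19833, against 7827 to 14267 in Ascl5WT/WT. Of these markers 1 was tested in Ascl5Mut/Mut and 2 in Ascl5Mut/WT, and none was called. Of the 9 above 0 in the Ascl5Mut/Mut table, 2 were higher in both mutant libraries than in both controls and 1 was lower. For Ascl5Mut/WT 2 of 9 were higher and 0 lower. Among all genes above 0 in some library, 13.3% were higher and 13.5% lower in Ascl5Mut/Mut, and 14.5% and 11.8% in Ascl5Mut/WT. Lhx8 and Prrx2 were at 0 in all libraries of the Ascl5Mut/Mut table, and Pax9 and Prrx2 in all of the Ascl5Mut/WT table. The 10 markers of dental and oral epithelium, 5 of which were tested and none called, summed to 10459 to 31672 in Ascl5Mut/Mut, against 33847 to 43777 in Ascl5WT/WT. Their Ascl5Mut/WT sums were 26155 to 58422, against Ascl5WT/WT sums of 35508 to 44550. Of these 10 markers 5 were lower in both Ascl5Mut/Mut libraries than in both controls and 0 higher, where 13.5% of all genes above 0 were lower. For Ascl5Mut/WT 1 of 10 was lower and 0 higher, where 11.8% of all were lower. The median difference of the tested epithelial markers was -0.39 in Ascl5Mut/Mut and -0.60 in Ascl5Mut/WT. Gad1, Gad2 and Slc32a1, which mark the forebrain interneurons that also use Dlx1, were at 0 in every library.

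Further lists were counted in the same way. Odontoblast markers summed to 30705 to 48892 normalized counts in Ascl5Mut/Mut, against 13385 to 23498 in Ascl5WT/WT, mostly from Col1a1. Osteoblast markers summed to 26413 to 34733 in Ascl5Mut/Mut, where Ibsp made up most of the sum, against 3383 to 8693 in Ascl5WT/WT. Runx2, also on that list, was lower in both Ascl5Mut/Mut libraries. Skeletal muscle markers summed to 93459 and 4408 in Ascl5Mut/Mut replicates 1 and 2, against 543 to 12095 in Ascl5WT/WT. Endothelial markers summed to 1522 to 1538 in Ascl5Mut/Mut, against 365 to 583 in Ascl5WT/WT. In the Ascl5Mut/WT table the mutant sums were 37627 to 60208, 10117 to 27785, 6933 to 27688 and 534 to 977 for these lists in turn. The Ascl5WT/WT sums of that table were 13552 to 24313, 3492 to 9073, 553 to 12546 and 346 to 587. Apart from Dspp, none of these genes was called.

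The genes whose pattern was most like that of Dlx1 were sought among the 2028 others that averaged at least 1000 in both tables. Likeness was the root mean square distance in log2(normalized count + 120), relative to the Ascl5WT/WT mean of the same table, over the 4 libraries of each table, which share the Ascl5WT/WT libraries. Gpr39, which encodes a zinc-sensing receptor, was closest at a distance of 0.707. It had 2100 and 2599 normalized counts in Ascl5Mut/Mut, against 58793 and 58649 in Ascl5WT/WT, and 8334 and 1640 in Ascl5Mut/WT, against 59972 and 61194 in Ascl5WT/WT. Like Dlx1, Gpr39 was called lower in both comparisons. Its difference was -4.58 in Ascl5Mut/Mut (limma, Benjamini-Hochberg adjusted p = 0.000383) and -3.98 in Ascl5Mut/WT (adjusted p = 0.000249). Its exons share 1202 bases with Lypd1 on the opposite strand, which had 556 and 0 in Ascl5Mut/Mut, against 874 and 604 in Ascl5WT/WT. Aldh1b1, an aldehyde dehydrogenase gene, followed at 0.714. It was listed at 0 in Ascl5Mut/Mut replicates 1 and 2, against 4923 and 3389 in Ascl5WT/WT. Celf5, Ino80 and Ldah came next, at 0.866, 1.19 and 1.34, with 0 and 0, 140 and 0, and 121 and 0 in Ascl5Mut/Mut. Aldh1b1 and these 3 passed the minimum mean only through the Ascl5WT/WT libraries. None of them was called (limma, Benjamini-Hochberg adjusted p = 0.246 to 0.557 in Ascl5Mut/Mut and 0.0697 to 0.594 in Ascl5Mut/WT). Dlx1as was number 22, at 1.90. The order is a description only, because it was picked on these same values. For genes at or near 0 in the mutants, the pseudocount sets the distance.

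Promoter windows of 300 bases were given by RefSeq (GRCm38.p6) for 3 of the 8 members. The E-box CANNTG, the letters that helix-loop-helix factors such as the product of Ascl5 commonly bind, was looked for in them. It reads the same on both strands. It was found in 72.3% of all 32851 such windows. The Dlx2 window (chr2:71546705-71547004), which spans the annotated start of the gene, held 3, of which 2 read CACGTG. Windows with CACGTG made up 7.2% of all. Another E-box, CAGCTG, was also looked for and was found in 16.3% of windows, but not in that of Dlx2. The Dlx1 window (chr2:71529195-71529494) held none, but it lies inside the first exon of the GENCODE model, so the bases before the annotated start of Dlx1 were not searched. Each of the 2 Dlx6os1 windows, which also lie inside that gene, held 1 CANNTG, and 1 of these read CAGCTG. These matches describe letters in a window and say nothing of binding.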

How the data were processed

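Per the labels' protocols, total RNA was extracted with an RNeasy Plus kit and libraries were made with the SMARTer Stranded RNA-Seq kit. The submitters' processing notes name mm10 and DESeq2, and the design text an Illumina differential expression program. For the aligner, annotation and strand setting, the sources used here give nothing. What the authors deposited are normalized counts, a linear signal, in 2 separately normalized tables. Whole reads could not be recovered: of values up to 5 steps, 86.2% to 94.5% came within 0.1 of whole steps. No count model was therefore used. Genes with a mean of at least 1000 were fitted within each table by limma 3.58.1 (R 4.3.3) on log2(normalized count + 120) with an intensity trend. The added 120 understates the change of low genes. Tests were two-sided with Benjamini-Hochberg adjustment and a threshold of 0.05. They were also run on simulated reads with an assumed spread, with changes set only in genes averaging at least 1000. Those runs used only the reported setting, so they say nothing of the settings in which a call was lost. The members, the 17 gene lists and these settings were chosen with earlier results of these data known. Genes named are the 8 members, genes overlapping or beside them, called list genes, up to 4 other genes a list, and the 5 genes most like Dlx1. Notch2, Edn1, Ednra, Alx4, Vim, Col1a1, Lhx8, Prrx1, Prrx2, Pou3f3, Runx2, Spp1, Bglap, Mepe and Phex were named after their values were seen. Exon lengths and positions come from GENCODE M21, which held 98.1% of the gene names. Replicate numbers do not pair the libraries (correlation of deviations -0.013 and 0.023).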

Additional observations from a re-analysis of the deposited data

How the results depend on the processing

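Dlx1 was lower in both mutant genotypes under all 15 alternatives. Of the 11 that kept every library, 7 for Ascl5Mut/Mut and 9 for Ascl5Mut/WT had an adjusted p under 0.05. These counts include a minimum mean of 10 and no filter separately, although both tested the same genes and gave the same fit. For Ascl5Mut/Mut the call was lost at -5.28 with a minimum mean of 10, with no filter and without the intensity trend. It was also lost at -5.46 with a pseudocount of 1 and a minimum mean of 10 together, an alternative chosen after seeing the data. For Ascl5Mut/WT it was lost at -4.00 without the trend and at -4.06 with that joint setting (adjusted p = 0.559). The cause was not tested. Leaving out 1 library gave -6.22 to -4.35 and -4.57 to -3.44 for Dlx1, -3.67 to -2.11 and -2.08 to -0.74 for Dlx1as. Over all alternatives the adjusted p of Dlx1 ranged over 4.37e-13 to 0.311 and 8.89e-18 to 0.559, and that of Dlx1as over 3.2e-07 to 0.709 and 0.00112 to 0.896. In all 20 genes were called for Ascl5Mut/Mut (13 higher, 7 lower), and 13 for Ascl5Mut/WT (8 higher, 5 lower). Pseudocount 1 gave 4 and 8, pseudocount 60 gave 12 for Ascl5Mut/Mut, minimum mean 10 or no filter gave 1 for Ascl5Mut/Mut, minimum mean 300 gave 4 and 21, and upper quartile scaling gave 34 (18 higher, 16 lower) and 24 (17 higher, 7 lower). Both no trend and the joint setting gave 0 and 0, where the reported limma fit had 261 and 207 genes at an unadjusted p under 0.05. Leaving out 1 library gave 0 to 74 and 0 to 66: 0 and 4 without Ascl5Mut/Mut replicates 1 and 2, 2 and 0 without Ascl5Mut/WT replicates 1 and 2, 22 and 43 without Ascl5WT/WT replicate 1, and 74 and 66 without Ascl5WT/WT replicate 2. Upper quartile scaling moved the median of all genes to -0.15 and 0.11, against which Dlx1 stood at -5.39 and -3.95 and Dlx1as at -3.00 and -1.35. With the replicate number as a block, which the data do not bear out as a pairing, 36 and 37 genes were called, and Dlx1as was past the threshold at -2.89 in Ascl5Mut/Mut (adjusted p = 0.00395). Members other than Dlx1 and Dlx1as had means under 1000 normalized counts and were not tested at the reported setting, and the size of difference detectable at their levels was not measured.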
